A study of Mus musculus with 39 samples.

Results

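Triglyceride in hepatocytes is kept in cytosolic lipid droplets, and the 10 genes described here were chosen because their products coat these droplets, fuse them, break down their triglyceride or bring fatty acids to them: Plin2, Plin4, Plin5, Cidea, Cidec, Pnpla2, Pnpla3, G0s2, Cd36 and Pparg. They were taken by name as the genes whose RefSeq accession was given for a probe, and they are 10 of 17016 genes that had a RefSeq probe and a symbol. Each had 1 such probe except Pnpla2, which had 2, so that 11 of the 25903 RefSeq probes belong to them.

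Liver RNA was measured in 39 male C57BL6/J mice, singly housed. The study's methods give 5 to 6 weeks as the age of the subject mice, before a week of single housing and the sessions, and no age at collection. AggE mice (21 in all) spent 6 hrs daily, without food or liquid, in a small cage inside the home cage of an aggressor male, with 3 brief random attacks, for 5 or 10 days, and Ctrl mice (18 in all) had the same schedule and deprivation with no aggressor. Livers were taken 24 hrs or 1.5 wks after the 5-day regimen and 24 hrs or 4 wks after the 10-day regimen (post-5-day and post-10-day in the plots), from 4 Ctrl and 5 AggE mice at the first 3 of these points and from 6 and 6 at the last. By the same methods a partition test 1 hr before collection put subject mice beside an aggressor they could sense but not touch. Some labels contradict others on the regimen. A description names 1 day where the source names 5. Titles begin with T10 for all AggE mice at 1.5 wks and with HC10 for Ctrl mouse 4 there, but with C5 for the other Ctrl mice. By title the comparison at 1.5 wks would thus set 10-day AggE mice against mostly 5-day Ctrl mice. Grouping followed the source named for the liver channel.

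Each liver was labeled with Cy-5 and hybridized on 1 array beside a common reference RNA, a pool from mouse cell lines, labeled with Cy-3. The value used throughout is the log2 ratio of liver over reference after normalization, so that 1 unit is a 2-fold difference, and only values of the same gene were set against each other. Spots are called well above background where the scanner software marked them so in Cy-5. Between 15.2% and 70.4% of all spots other than controls were well above background on an array. The group medians ran from 22.4% to 29.8% after the 5-day regimen and from 38.5% to 53.4% after the 10-day regimen. The arrays lie on 11 slides. No slide held both treatments of a 24-hr point, so that slide and treatment cannot be told apart there, whereas slide 7 held both at 1.5 wks and slide 9 held both at 4 wks. The tissue matched its label, since the 8 hepatocyte markers measured, albumin among them, were well above background on every array.

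Perilipins coat the droplet and hold lipases off its surface. Adipose triglyceride lipase, encoded by Pnpla2, makes the first cut of a triglyceride, is held back by the small protein G0s2, and works on droplets that the CIDE proteins enlarge by passing lipid from one droplet to the next. In a fasted or fat-loaded liver, fatty acids arriving from plasma are known to raise several of these genes through the nuclear receptors PPARα and PPARγ, whose DNA element is a direct repeat of the letters AGGTCA spaced by 1 base.

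The sequences below, from the RefSeq promoter windows of assembly GRCm38.p6 (250 bases before to 50 after each start), are shown because they hold the AGGTCA letters upstream of a start of 4 of these genes. The match, read on either strand, is in capitals.
Plin2, chr4:86670260-86670289, minus strand, match 218 bases before the start: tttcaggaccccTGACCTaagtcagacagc
Plin5, chr17:56117701-56117730, minus strand, match 170 bases before the start: agtcctagtctgAGGTCAgccatggtgact
Cd36, chr5:17836107-17836136, minus strand, match 228 bases before the start: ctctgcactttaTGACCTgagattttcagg
Pparg, first start, chr6:115361104-115361133, plus strand, match 28 bases before that start: agccgccgcctcAGGTCAgagtcgccccgg
Pparg, second start, chr6:115362328-115362357, plus strand, match 9 bases before that start: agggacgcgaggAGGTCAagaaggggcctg
The 6 letters were found in 6 of 13 windows, which cover all of the genes but Cidea, and in 16.3% of all 32851 windows. The full repeat, written AGGTCANAGGTCA, was in none of the 13 windows and in 0.0396% of all windows. These matches are a description of letters in a short window, and nothing was drawn from them about binding. Plin4 (chr17:56100587-56109948) and Plin5 (chr17:56111597-56117606) are neighbours, and their probes are separate.

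No lipid droplet gene passed an adjusted p of 0.05 in any comparison of AggE with Ctrl mice. The count was 0 of 10 at 24 hrs after 5 days, with 3.10% of all RefSeq probes called by the same rule. At 1.5 wks after 5 days 0 of 10 were called, with 0% of all probes. At 24 hrs after 10 days the count was 0 of 10 beside 0.0734%, and at 4 wks after 10 days it was 0 of 10 beside 3.51%. At these shares fewer than 1 gene in 10 would be called. The lowest adjusted p among the 10 genes was 0.17, 1, 1 and 0.19 in the same order.

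At an unadjusted p of 0.05 or less, 2 of 10 stood out at 24 hrs after 5 days (Pparg and Pnpla3) where 17.3% of all probes did, and 2 of 10 at 4 wks (Plin5 and Pparg) where 20.6% did. At 1.5 wks the count was 0 of 10 beside 2.43% of all probes, and at 24 hrs after 10 days 0 of 10 beside 2.83%. The medians of the 10 log2 changes were -0.12, 0.01, 0.10 and -0.02 in the 4 comparisons, against 0, 0, 0 and 0.01 over all genes. In none of these 4 comparisons did a lipid droplet gene change by 2-fold.

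**Figure D1:**
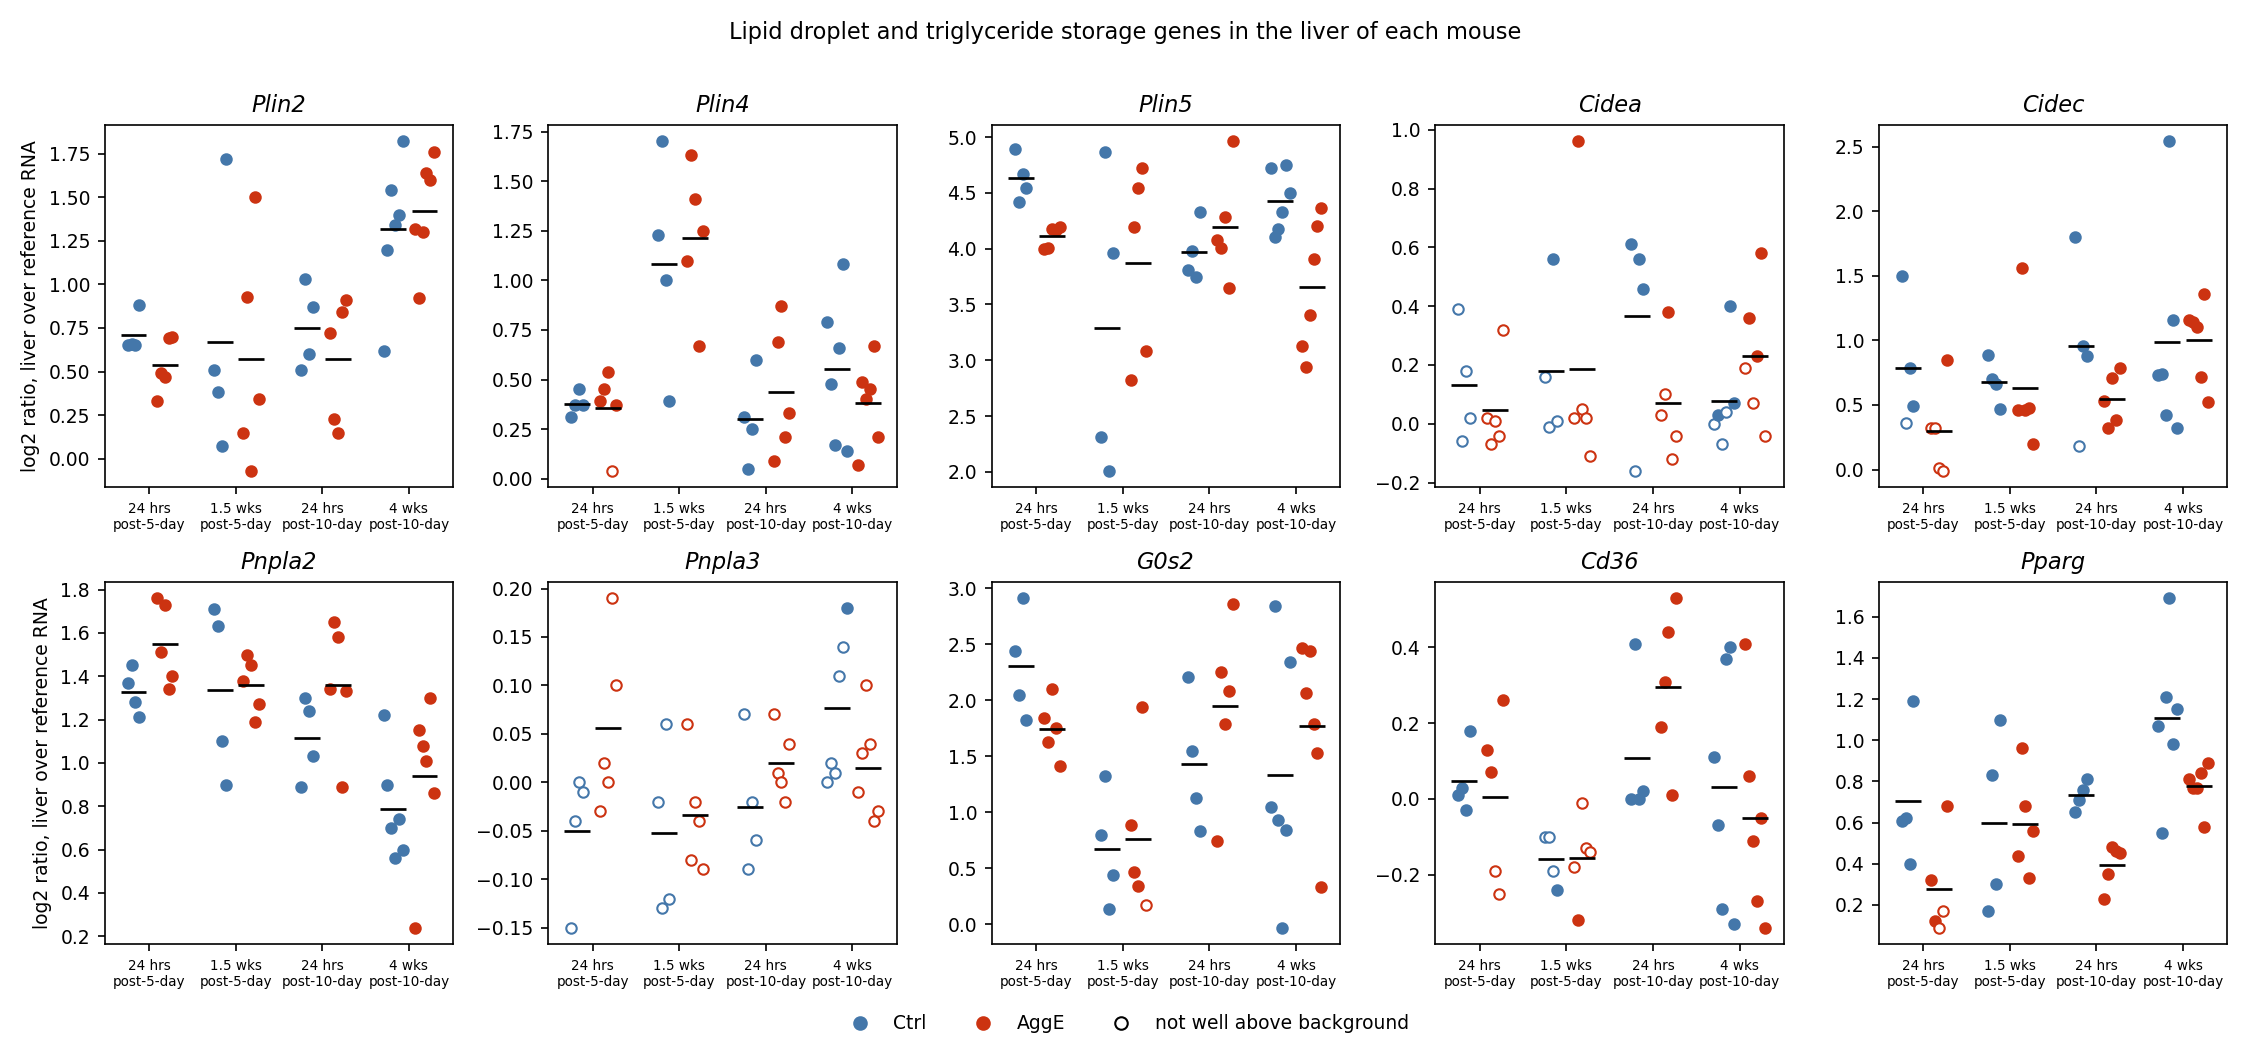
Log2 ratio of liver over reference RNA (vertical axis, own scale per panel) of the 10 genes in each mouse, by time point and treatment; the bar is the group mean and an open circle marks a spot not well above background. Ctrl and AggE mice are apart without overlap for Plin5 at 24 hrs after 5 days and for Pparg at 24 hrs after 10 days.

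Among the coat proteins, Plin5, which ties droplets to mitochondria in tissues that burn fat, had the clearest separation. At 24 hrs after 5 days its log2 ratio was 4.89, 4.42, 4.67 and 4.54 in the Ctrl mice and 4.00, 4.01, 4.18, 4.17 and 4.19 in the AggE mice. All 5 AggE mice were below all 4 Ctrl mice, as for 5.00% of all probes in that comparison, where the treatments lay on separate slides. The log2 change of -0.52 (SE 0.40) had an adjusted p of 0.57, since the fit takes 1 spread for each gene from all 8 groups and Plin5 varied far more in other groups. With the 2 groups alone in the fit, the SE was 0.10 and the adjusted p 0.059. The processed signals of the scanner software turned the direction: the log2 change was then 1.43 with an adjusted p of 0.051.

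Plin5 differed most between mice at 1.5 wks, where it was 2.31, 4.87, 2.01 and 3.96 in the Ctrl mice and 2.82, 4.19, 4.54, 4.72 and 3.08 in the AggE mice. The groups overlapped over nearly their whole range, and the log2 change was 0.58 (SE 0.40, adjusted p = 1). It was 1.11 (unadjusted p = 0.0056, adjusted p = 0.84) without Ctrl mouse 2 and 0.16 without Ctrl mouse 3 in the limma fit. On slide 7, which held both treatments, the AggE mouse was at 3.08 and the 3 Ctrl mice were at 2.31, 4.87 and 2.01. At 24 hrs after 10 days the Ctrl mice ranged from 3.75 to 4.33 and the AggE mice from 3.65 to 4.96, with a log2 change of 0.23 (SE 0.40, adjusted p = 1).

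At 4 wks after 10 days Plin5 had a lowest, median and highest value of 4.10, 4.42 and 4.75 in Ctrl mice and of 2.94, 3.66 and 4.36 in AggE mice. The groups overlapped, with 4 AggE mice below the lowest Ctrl mouse. The log2 change was -0.77 (SE 0.34, 95% interval -1.47 to -0.07), a 1.71-fold lower mean, with an unadjusted p of 0.031 and an adjusted p of 0.19 in the limma fit. On slide 9, which held both treatments, the AggE mouse was at 3.13 and the 3 Ctrl mice were at 4.33, 4.75 and 4.50. Without the mice at 1.5 wks in the fit, the same log2 change had an SE of 0.21 and an adjusted p of 0.036, whereas the processed signals gave -0.21 with an adjusted p of 0.94.

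Plin2, the coat protein of droplets in most cells and a common gauge of liver fat, was well above background on all 39 arrays. Its log2 change was -0.17 (SE 0.27), -0.10 (SE 0.27), -0.18 (SE 0.27) and 0.10 (SE 0.23) at 24 hrs and 1.5 wks after 5 days and 24 hrs and 4 wks after 10 days. All 5 AggE mice at 24 hrs after 5 days (0.33 to 0.70) were below the Ctrl mean of 0.71, but they overlapped the Ctrl mice (0.65 to 0.88). The Plin2 means were 1.32 ± 0.40 (SD, n = 6) in Ctrl and 1.42 ± 0.31 (SD, n = 6) in AggE mice at 4 wks. They were between 0.54 and 0.75 in the other 6 groups. No test was made between time points, which differ in age, slides, day of the scan and regimen. All mice at 4 wks were scanned on the second of 2 days, as were Ctrl mouse 4 (1.72) and AggE mouse 2 (0.93) at 1.5 wks. The other Ctrl mice at 1.5 wks were at 0.07 to 0.51 and the other AggE mice at -0.07 to 1.50.

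Plin4, a long perilipin best known from adipose tissue and muscle, had log2 changes of -0.02 (SE 0.20), 0.13 (SE 0.20), 0.14 (SE 0.20) and -0.17 (SE 0.17) in the same order, and Ctrl and AggE mice overlapped each time. Its highest group means were those at 1.5 wks, 1.08 in Ctrl and 1.21 ± 0.36 (SD, n = 5) in AggE mice. Elsewhere the group means lay between 0.30 and 0.55, again with no test between time points.

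Cidec and Cidea, which join droplets into larger ones and are abundant in white and brown fat, were dim in liver. Cidea was well above background on 12 of 39 arrays and Cidec on 33. Cidec at 24 hrs after 5 days was 1.50, 0.36, 0.79 and 0.49 in Ctrl mice and 0.32, 0.32, 0.01, -0.01 and 0.85 in AggE mice. Of these, 3 of 4 Ctrl mice and 1 of 5 AggE mice were well above background, and the groups overlapped through AggE mouse 5. That mouse was on slide 6 and the other 4 on slide 5. The log2 change was -0.49 (SE 0.32, 95% interval -1.14 to 0.17, adjusted p = 0.48). Leaving out 1 mouse at a time gave from -0.63 to -0.25.

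The arrays of those AggE mice had 15.7% to 28.2% of spots other than controls well above background and those of the Ctrl mice 25.3% to 31.0%. The part of this in the values of dim genes was not tested. The size of the Cidec change differed between ways of processing, for which the cause was not tested. It was -0.98 (adjusted p = 0.17) with an offset of 16 in place of 50 after background correction, -2.02 (adjusted p = 0.044) with no offset, and -3.15 (adjusted p = 0.018) in the log ratios of the series table, which differ from the others in several steps at once. Cidec at 24 hrs after 10 days was 1.80, 0.18, 0.96 and 0.88 in Ctrl mice and between 0.32 and 0.79 in AggE mice, with a log2 change of -0.41 (SE 0.32, adjusted p = 1). Leaving out 1 mouse at a time gave from -0.66 to -0.13 for the change at 24 hrs after 10 days. At 1.5 and 4 wks the log2 changes were -0.05 (SE 0.32) and 0.01 (SE 0.28). On slide 7 at 1.5 wks the AggE mouse was at 0.20, below the 3 Ctrl mice there (0.66 to 0.89).

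Cidea at 24 hrs after 10 days was 0.61, -0.16, 0.56 and 0.46 in Ctrl mice and 0.03, 0.10, 0.38, -0.12 and -0.04 in AggE mice. Well above background were 3 of 4 Ctrl mice and 1 of 5 AggE mice. The groups overlapped, and the log2 change was -0.29 (SE 0.17, adjusted p = 1). Leaving out 1 mouse at a time gave from -0.47 (without Ctrl mouse 2, unadjusted p = 0.0091 in the limma fit) to -0.22, and none passed after adjustment. No mouse of either group had Cidea well above background at 24 hrs after 5 days, and at 1.5 and 4 wks the log2 changes were 0.01 (SE 0.17) and 0.16 (SE 0.15).

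The 5 mice with the highest Cidea and the 5 with the highest Cidec are given here with the mean log2 ratio of 9 adipocyte markers and the number of these well above background. Ctrl mouse 1 at 24 hrs after 10 days, with Cidea at 0.61 and Cidec at 1.80, had a marker mean of 0.98, the highest of all mice, with 7 of 9 above background. In that liver Ucp1, the uncoupling protein of brown fat, was at 1.71 and Cfd, the fat-cell protease adipsin, at 3.41, whereas Plin1 (0.06) and Lep (0.14) were not well above background. AggE mouse 2 at 1.5 wks, the highest for Cidea (0.96) with Cidec at 1.56, had a marker mean of 0.53 with 6 of 9 above background. Its Lep (0.70) was the highest of all mice and Ucp1 (0.45), Cfd (1.68) and Fabp4 (1.61) were also above background, but not Adipoq (-0.01), Plin1 (0.08) or Retn (-0.09), and its mean over 10 skeletal muscle markers was 2.73.

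AggE mouse 5 at 4 wks, with Cidea at 0.58 and Cidec at 1.36, had a marker mean of 0.77 and was the only mouse with 9 of 9 above background. Ctrl mouse 3 at 24 hrs after 10 days, with Cidea at 0.56, had a mean of 0.63 with 6 of 9. Ctrl mouse 3 at 1.5 wks, also with Cidea at 0.56, had a mean of 0.19 with 4 of 9, and it was the only one of its group with Ucp1 above background (0.49 against -0.03 to 0.03). Ctrl mouse 4 at 4 wks, the highest for Cidec (2.54) with Cidea at 0.04, had a mean of 0.48 with 5 of 9, Adipoq at -0.03 and a muscle mean of 1.78. Ctrl mouse 1 at 24 hrs after 5 days, with Cidec at 1.50, had a mean of 0.51 with 6 of 9. Of the 5 highest marker means the other 3 were those of AggE mice 3, 5 and 1 at 24 hrs after 10 days (0.78, 0.75 and 0.72), with Cidea at 0.38, -0.04 and 0.03.

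Over whole groups the adipocyte mean ranged from 0.08 to 0.51 in Ctrl and from 0.25 to 0.50 in AggE mice at 24 hrs after 5 days, and from 0.32 to 0.98 and 0.55 to 0.78 at 24 hrs after 10 days. It ranged from 0.08 to 0.21 and 0.00 to 0.53 at 1.5 wks, and from 0.15 to 0.64 and 0.22 to 0.77 at 4 wks. Of the markers that define fat cells, Adipoq was well above background on 8 of 39 arrays, Plin1 on 4, Lep on 10, Retn on 6 and Ucp1 on 8, whereas Lpl was so on 30, Lipe on 33, Cfd on 35 and Fabp4 on 37. None of the 9 was called with an adjusted p of 0.05 except Lep at 4 wks, with a log2 change of 0.31 (adjusted p = 0.034). On slide 9 Lep was 0.16 in the AggE mouse and 0.01 to 0.20 in the Ctrl mice, and the AggE mice on slides 10 and 11 were between 0.33 and 0.57. At an unadjusted p of 0.05, 2 of 9 were higher in AggE mice at 24 hrs after 5 days and 0 of 9 passed at 1.5 wks. By that p 1 was higher and 1 lower at 24 hrs after 10 days, and 1 was higher at 4 wks. The shares of all probes with that p were 17.3%, 2.43%, 2.83% and 20.6% in the same order. Fabp4 at 24 hrs after 5 days ranged from 1.20 to 2.25 in Ctrl and from 2.06 to 3.75 in AggE mice. The part of fat-cell RNA in the Cidea and Cidec values was not tested, and in a whole liver fewer cells of a type and less RNA per cell cannot be told apart.

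**Figure D2:**
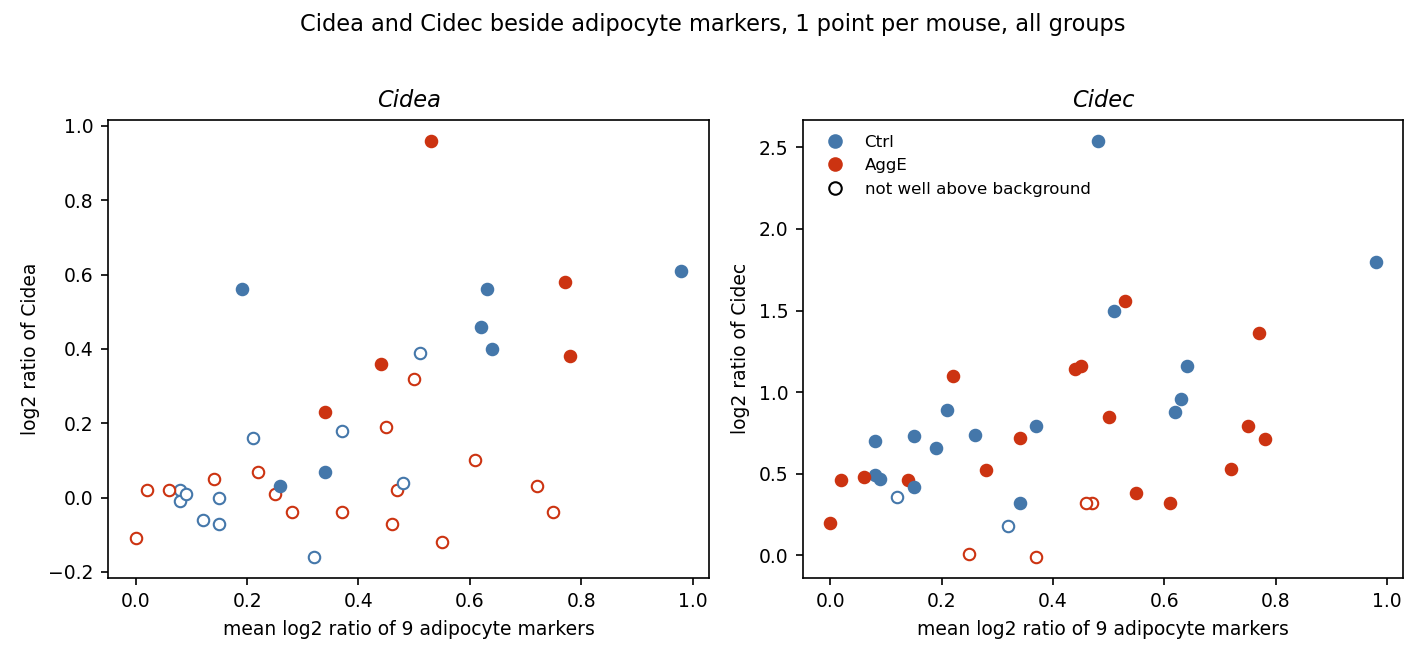
Log2 ratio of Cidea (left) and Cidec (right) against the mean log2 ratio of 9 adipocyte markers, 1 point for each of 39 mice, with open circles for spots not well above background. The 3 mice with the highest Cidec (2.54, 1.80 and 1.56) had marker means of 0.48, 0.98 and 0.53; mice of all groups and slides are pooled and no correlation was tested.

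Muscle RNA was present in some livers of every group, with group ranges of the muscle mean between -0.25 and 2.75. Plin4 and Plin5 are also muscle genes, and at 24 hrs after 5 days the only Ctrl mouse with muscle markers above a mean of 0 was mouse 3, at 2.75. Its Plin5 value was 4.67, within the range of the other Ctrl mice (4.42 to 4.89), and its Plin4 value was 0.45, above theirs (0.31 to 0.37). The mouse with the highest muscle mean was also the highest of its group for Plin4 at 24 hrs after 10 days (Ctrl mouse 4 at 0.60, AggE mouse 3 at 0.87), in AggE mice at 1.5 wks (mouse 2 at 1.63) and in AggE mice at 4 wks (mouse 5 at 0.67). It was not in AggE mice at 24 hrs after 5 days, nor in Ctrl mice at 1.5 wks or at 4 wks. The part of muscle RNA in the Plin4 and Plin5 values was not tested. After adjustment no muscle, macrophage or endothelial marker was called in any comparison. At an unadjusted p of 0.05 there was none of 10 for muscle and at most 1 of 10 endothelial markers in a comparison. At 24 hrs after 10 days, however, all 10 muscle markers (median log2 change 0.59) and all 9 macrophage markers (median 0.36) had higher AggE means, and 3 of the 9 passed that p beside 2.83% of all probes. Of the 9 macrophage markers 1 was higher at 24 hrs after 5 days, 0 passed at 1.5 wks and 2 were lower at 4 wks by the same p. The shares of all probes with that p were 17.3%, 2.43% and 20.6% at these points. The median change of the muscle markers was -0.02, 0.31 and 0.42 at 24 hrs and 1.5 wks after 5 days and at 4 wks, and the part of these cell types in the values of the 10 genes was not tested.

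Among the lipases and their inhibitor, Pnpla2 was well above background on all 39 arrays. Its log2 change was 0.22 (SE 0.17), 0.02 (SE 0.17), 0.24 (SE 0.17) and 0.15 (SE 0.15) at 24 hrs and 1.5 wks after 5 days and 24 hrs and 4 wks after 10 days. All 5 AggE mice at 24 hrs after 5 days (1.34 to 1.76) were above the Ctrl mean of 1.33, but the groups overlapped. Its second, dimmer probe gave -0.11 (SE 0.20), -0.11 (SE 0.20), 0.02 (SE 0.20) and 0.19 (SE 0.18), so that the probes differed in sign at both 5-day points. At 4 wks the AggE mouse on slide 9 was at 0.24, below the 3 Ctrl mice on that slide (0.56 to 0.74), the opposite direction to the whole groups. Without that mouse the log2 change of Pnpla2 at 4 wks was 0.29 (unadjusted p = 0.036 in the limma fit), which did not pass after adjustment.

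G0s2, the inhibitor of that lipase and a gene that follows feeding and insulin, had the largest SD within groups of the 10 genes when pooled over all groups (0.72). In single groups other genes could vary more, such as Plin5 in the Ctrl mice at 1.5 wks (SD 1.36 against 0.51 for G0s2). Its values at 24 hrs after 5 days were 2.44, 2.05, 2.91 and 1.82 in Ctrl mice and 1.84, 1.63, 2.10, 1.75 and 1.41 in AggE mice, and at 24 hrs after 10 days 2.21, 1.55, 1.13 and 0.83 in Ctrl and 0.74, 2.25, 1.79, 2.08 and 2.86 in AggE mice. All 5 AggE mice were below the Ctrl mean at the first of these points, and the groups overlapped at both. The log2 changes were -0.56 (SE 0.46, 95% interval -1.50 to 0.38) and 0.51 (SE 0.46, interval -0.43 to 1.45). Without normalization between arrays the first was -1.14 (unadjusted p = 0.035, adjusted p = 0.45 in the limma fit). With the 2 groups alone in the fit its unadjusted p was 0.024, and it did not pass after adjustment.

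The difference between those G0s2 changes was -1.07 (SE 0.65, 95% interval -2.40 to 0.26, adjusted p = 0.85), so that it was not separated from the spread between mice. At 1.5 wks G0s2 ranged from 0.14 to 1.32 in Ctrl and from 0.17 to 1.94 in AggE mice, with a log2 change of 0.08 (SE 0.46). On slide 7 the AggE mouse was at 0.17 and the 3 Ctrl mice there were at 0.14 to 1.32, with a mean of 0.76. At 4 wks its lowest, median and highest values were -0.03, 0.99 and 2.84 in Ctrl and 0.33, 1.92 and 2.47 in AggE mice, with a log2 change of 0.44 (SE 0.40, adjusted p = 0.58).

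Pnpla3, a droplet protein whose human form bears a well-known fatty liver variant, was well above background on 1 of 39 arrays, a Ctrl mouse at 4 wks. Its values lay between -0.15 and 0.19 in all mice. The unadjusted p of 0.049 at 24 hrs after 5 days belonged to a log2 change of 0.11 (SE 0.05, adjusted p = 0.29) between groups in which no mouse had a measured level.

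Cd36, the fatty acid translocase of the cell surface, was well above background on 30 of 39 arrays. Its values at 24 hrs after 10 days were 0.00, 0.41, 0.00 and 0.02 in Ctrl mice and 0.19, 0.31, 0.44, 0.01 and 0.53 in AggE mice. Of the AggE mice 4 were above 3 of the 4 Ctrl mice, yet the groups overlapped, and the log2 change was 0.19 (SE 0.14, adjusted p = 1). The other log2 changes of Cd36 were -0.04 (SE 0.14), 0.00 (SE 0.14) and -0.08 (SE 0.12) at 24 hrs and 1.5 wks after 5 days and 4 wks after 10 days.

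Pparg, the nuclear receptor that drives lipid storage genes in fat cells and in fatty liver, had a lower AggE mean, by -0.33 to -0.43 on the log2 scale, in 3 of 4 comparisons, none of which passed after adjustment. Pparg at 24 hrs after 10 days was 0.65, 0.71, 0.76 and 0.81 in Ctrl mice and 0.23, 0.35, 0.48, 0.46 and 0.45 in AggE mice. All 5 AggE mice were below all 4 Ctrl mice, as for 0.711% of all probes in that comparison. The log2 change was -0.34 (SE 0.17, 95% interval -0.69 to 0.01) with an unadjusted p of 0.058 and an adjusted p of 1.

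Pparg at 24 hrs after 5 days was 0.61, 0.62, 0.40 and 1.19 in Ctrl mice and 0.32, 0.12, 0.09, 0.17 and 0.68 in AggE mice, 2 of the latter not well above background. The groups overlapped through AggE mouse 5, the only one of its group that was not on slide 5, and the other AggE mice were below every Ctrl mouse. The log2 change was -0.43 (SE 0.17, 95% interval -0.78 to -0.08) with an unadjusted p of 0.018 and an adjusted p of 0.17. Array weights, which give noisier arrays less say, gave -0.51 with an adjusted p of 0.047, and the slide as a random block gave -0.31 with an adjusted p of 0.95. Without Ctrl mouse 4, the highest of its group, the change was -0.27 with an unadjusted p of 0.14.

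At 4 wks Pparg had a lowest, median and highest value of 0.55, 1.11 and 1.69 in Ctrl and of 0.58, 0.79 and 0.89 in AggE mice. All but 1 Ctrl mouse were above every AggE mouse, and the AggE mouse on slide 9 (0.81) was below the 3 Ctrl mice there (0.98 to 1.69). The log2 change was -0.33 (SE 0.15, 95% interval -0.63 to -0.03) with an unadjusted p of 0.033 and an adjusted p of 0.20. Without normalization between arrays it was -0.63 with an adjusted p of 0.028, and without Ctrl mouse 4 it was -0.21 with an unadjusted p of 0.14. At 1.5 wks the groups overlapped throughout, Ctrl from 0.17 to 1.1 and AggE from 0.33 to 0.96, and the log2 change was -0.01 (SE 0.17).

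At the other time points no lipid droplet gene had all AggE mice below all Ctrl mice: the counts were 0 of 10 at 1.5 wks, where 0.539% of all probes did, and 0 of 10 at 4 wks, where 0.922% did.

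**Figure D3:**
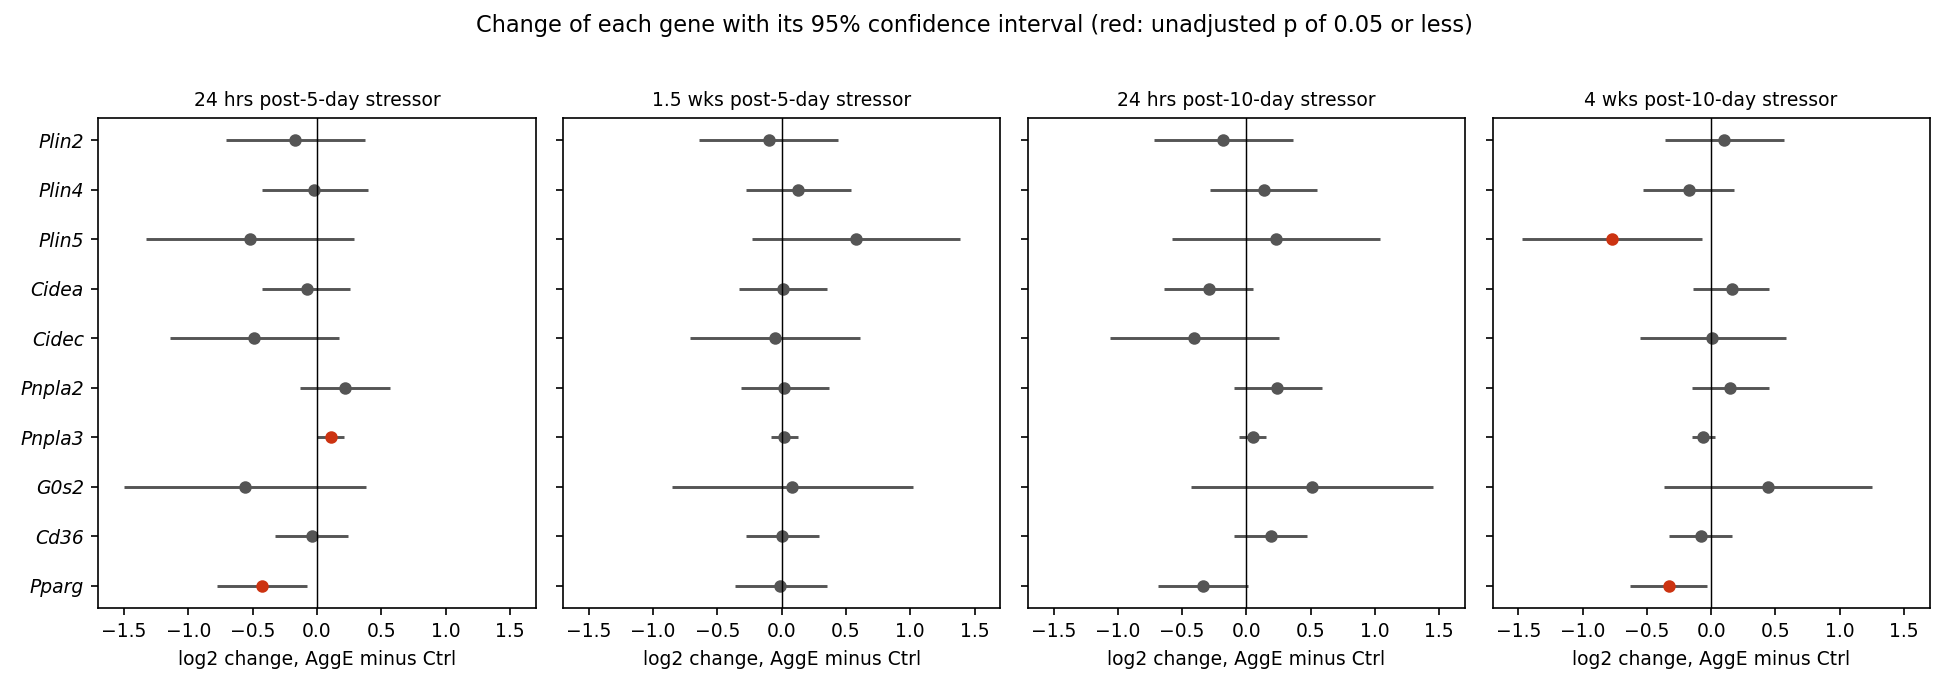
Log2 change (AggE minus Ctrl, horizontal axis) of the 10 genes in the 4 comparisons; points are limma estimates and lines their 95% confidence intervals, and red marks an unadjusted p of 0.05 or less. Red points are Pnpla3 (0.11) and Pparg (-0.43) at 24 hrs after 5 days and Plin5 (-0.77) and Pparg (-0.33) at 4 wks after 10 days, and none passed after adjustment.

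The changes were also set against each other with the fit. Between 24 hrs after 5 days and 24 hrs after 10 days 0 of 10 genes differed in their change at an adjusted p of 0.05, beside 0.0270% of all probes. Between 24 hrs and 1.5 wks after 5 days it was 0 of 10 beside 0.0695%, and between 24 hrs and 4 wks after 10 days 0 of 10 beside 0.0502%. No gene of the 10 had an unadjusted p of 0.05 or less in these comparisons.

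The largest of these differences belonged to Plin5 and G0s2. For Plin5 the change at 24 hrs was lower than that at 1.5 wks, with a difference of -1.11 (SE 0.56, 95% interval -2.25 to 0.04, adjusted p = 0.66). It was -1.63 (unadjusted p = 0.003, adjusted p = 0.34) without Ctrl mouse 2 at 1.5 wks and -0.68 without Ctrl mouse 3. The change at 24 hrs after 10 days was above that at 4 wks, with a difference of 1.00 (SE 0.53, interval -0.07 to 2.07, adjusted p = 0.59). The intervals thus reach past 0 and also allow differences of 4-fold in Plin5. For Pparg the difference between the 24-hr changes of the 5-day and 10-day regimens was -0.09 (SE 0.25, 95% interval -0.59 to 0.41).

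Spread between mice of the same group set the limits of these comparisons. The pooled SD within groups was 0.72 for G0s2, 0.62 for Plin5, 0.50 for Cidec and 0.41 for Plin2, against a median of 0.16 over all probes and of 0.27 over the 3955 brightest ones, those well above background on every array. G0s2 was at the 97.8th and Plin5 at the 95.1st percentile of those bright probes. Plin4 (0.31), Pparg (0.27), Pnpla2 (0.26), Cidea (0.26) and Cd36 (0.21) lay nearer to the bright-probe median, and Pnpla3, well above background on 1 array, had the lowest value (0.07).

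**Figure D4:**
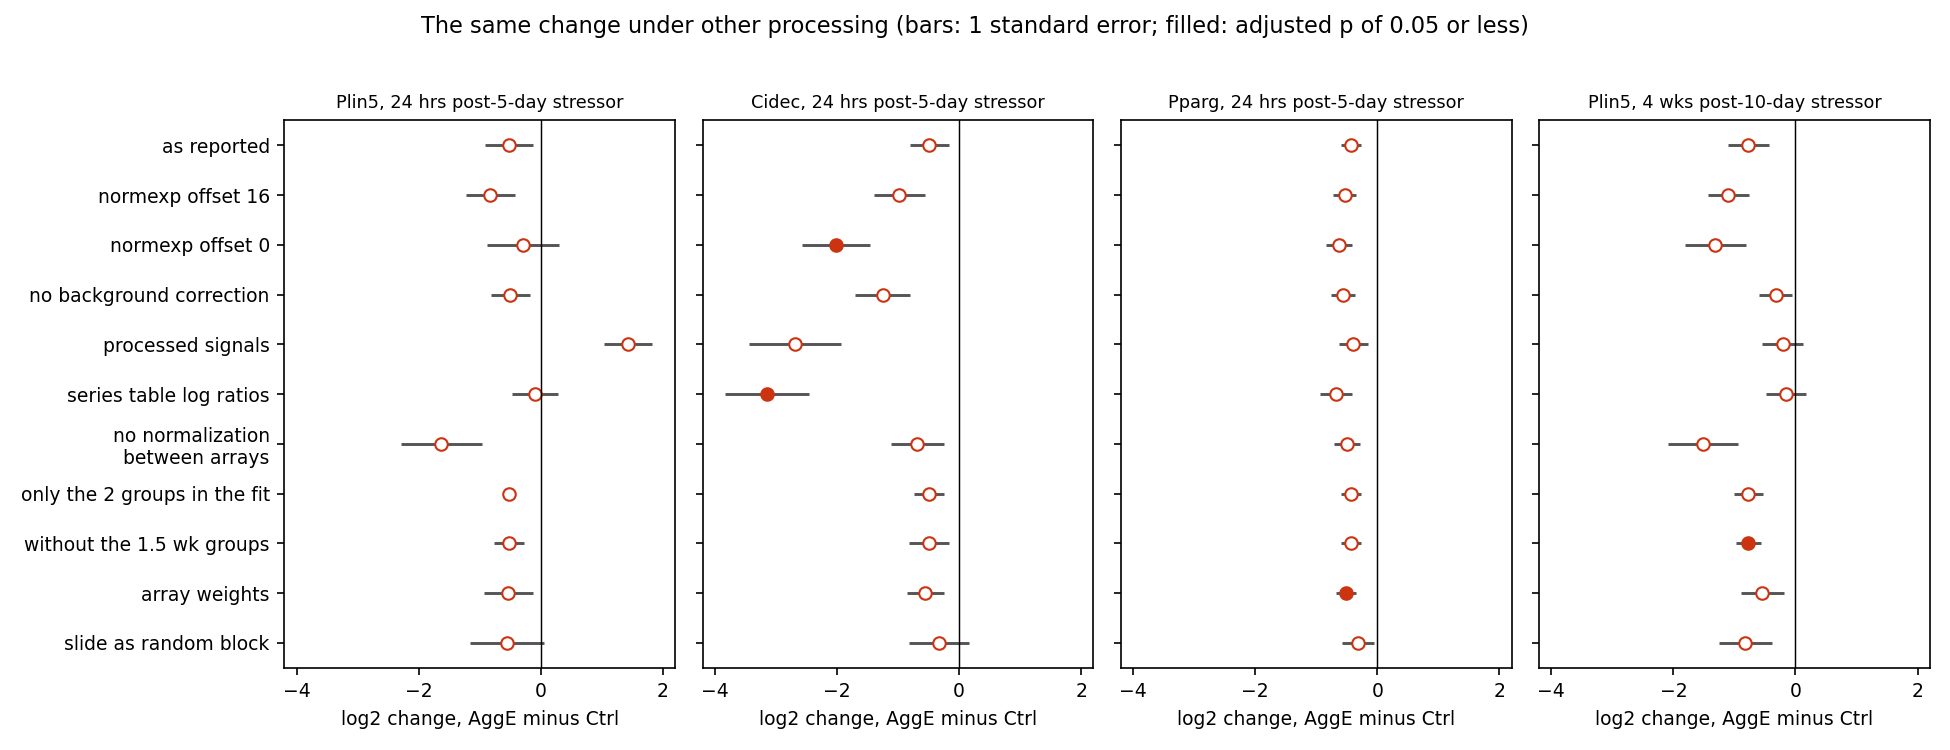
Log2 change (AggE minus Ctrl, horizontal axis) of Plin5, Cidec and Pparg under 11 ways of processing the same arrays, with bars of 1 standard error and filled points for an adjusted p of 0.05 or less. Pparg at 24 hrs after 5 days stayed below 0 in every row, Cidec ranged from -0.33 to -3.15, and Plin5 at 24 hrs after 5 days turned to 1.43 with the processed signals.

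The 72 other genes of droplet coating and biogenesis, triglyceride synthesis, lipolysis, fatty acid uptake and activation, lipoprotein secretion and lipid transcription were also read, of which 70 had a probe. At 24 hrs after 5 days 1 of 70 rose and none fell after adjustment, beside 3.10% of all probes called in either direction, and 2 were higher and 2 lower at an unadjusted p of 0.05, beside 17.3% of all probes. At 1.5 wks 0 of 70 were called beside 0% of all probes, and 2 had an unadjusted p below that level beside 2.43%. The 24-hr point after 10 days had 0 of 70 called beside 0.0734%, and 1 below that level beside 2.83%. At 4 wks 2 rose and 2 fell, and at an unadjusted p of 0.05 there were 12 higher and 12 lower. The shares over all probes there were 3.51% called and 20.6% at that unadjusted p.

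The gene that rose at 24 hrs after 5 days was Gpat3, which adds the first fatty acid to glycerol phosphate. It was 0.47, 0.34, 0.01 and 0.15 in Ctrl mice and 1.15, 0.96, 0.94, 0.36 and 0.67 in AggE mice, and the groups overlapped through AggE mouse 4. The log2 change was 0.58 (SE 0.14, adjusted p = 0.017). A second, dimmer probe of Gpat3, not well above background in any mouse of the 2 groups, gave -0.13 (SE 0.09), and the log2 change was 0.53 (SE 0.22, adjusted p = 0.53) once slides entered as a random block.

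At 4 wks the fatty acid uptake and activation genes had a median log2 change of -0.42 over 16 genes, with 0 of 16 called after adjustment and 7 lower and 1 higher at an unadjusted p of 0.05. The other lipases and cofactors had a median of -0.51 over 9 genes, with 3 lower and 1 higher at that p, and 1 was called: Lipa, the lysosomal acid lipase, at -0.53 (SE 0.14, adjusted p = 0.034). The median over all genes was 0.01. For comparison, 20.6% of all probes at 4 wks reached the unadjusted limit of 0.05 in either direction, and 3.51% were called. The counts of single lists were not tested against these shares. Of the other droplet coat and biogenesis genes 5 of 13 were higher and 0 lower at an unadjusted p of 0.05 (median -0.05), and of those of lipoprotein secretion 2 of 5 were higher and 0 lower (median 0.06). The 8 hepatocyte markers were also all lower in AggE mice at 4 wks, with a median of -0.26, 0 called after adjustment and 1 at an unadjusted p of 0.05. Their mean ranged from 5.16 to 5.70 in Ctrl and from 4.70 to 5.56 in AggE mice, and the part of this in the lower uptake and lipase values was not tested.

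Triglyceride synthesis held 1 rise and 1 fall at 4 wks. Agpat2, which adds the second fatty acid, had a log2 change of 0.96 (SE 0.21, adjusted p = 0.016), and Gpat4, of the first step, had -0.71 (SE 0.18, adjusted p = 0.03). Fitm1, which helps bud droplets from the endoplasmic reticulum, had 0.75 (SE 0.21, adjusted p = 0.044). Probes of the same gene differed for Gpat4, whose others gave 0.29 (SE 0.21) and 0.27 (SE 0.14), but not in direction for Agpat2, whose other probe gave 0.88 (SE 0.31, adjusted p = 0.1).

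The only slide with both treatments at 4 wks, slide 9, held 1 AggE mouse, so that mouse and slide cannot be told apart there. On slide 9 Agpat2 was 0.20 in the AggE mouse and 0.17, 0.17 and 0.80 in the Ctrl mice, while the AggE mice on slides 10 and 11 were between 1.56 and 1.97. Fitm1 was 0.46 in the AggE mouse of slide 9 and 0.32, 0.36 and 0.19 in its Ctrl mice, and at least 1.15 in AggE mice elsewhere. The Ctrl mice of slide 8 were between 0.34 and 1.23 for Agpat2 and between 0.19 and 0.98 for Fitm1. With the slide as a fixed block, which at 4 wks is the difference of this 1 AggE mouse from the 3 Ctrl mice of its slide, the change was -0.18 for Agpat2 and 0.17 for Fitm1. Without that mouse it was 1.21 (adjusted p = 0.00016) for Agpat2 and 0.89 (adjusted p = 0.0078) for Fitm1.

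Gpat4 (1.67 against 1.82 to 2.24) and Lipa (1.03 against 1.16 to 1.71) were lower in the AggE mouse of that slide than in its Ctrl mice. With the slide as a random block none of the 4 genes passed, with log2 changes of -0.66 for Gpat4, -0.45 for Lipa, 0.67 for Agpat2 and 0.56 for Fitm1 and adjusted p from 0.17 for Gpat4 to 0.27 for Fitm1. Over all settings tried, Agpat2 passed in 19 of 28, Gpat4 in 16, Lipa in 14 and Fitm1 in 6, and Gpat3 at 24 hrs after 5 days in 14 of 24.

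**Figure D5:**
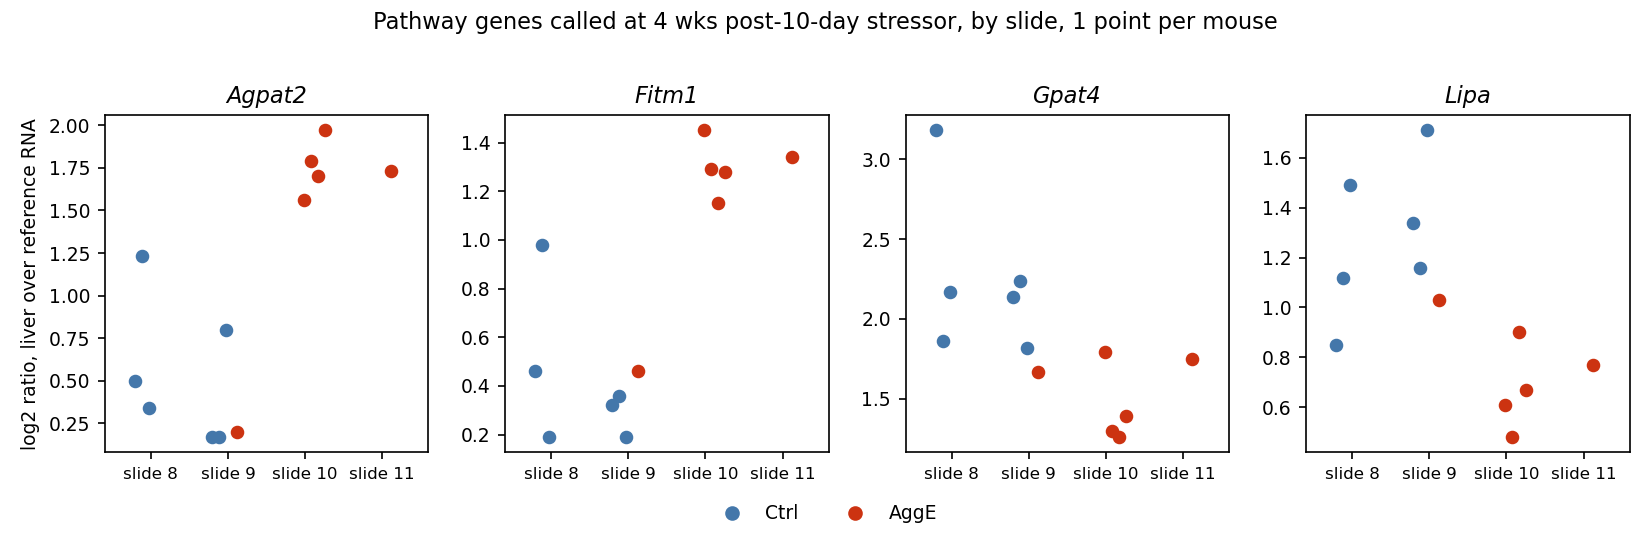
Log2 ratio (vertical axis, own scale per panel) of the 4 pathway genes called at 4 wks after 10 days in each mouse, by slide. On slide 9, the only one with both treatments, the AggE mouse lies among the Ctrl mice for Agpat2 (0.20 against 0.17 to 0.80) and below them for Gpat4 (1.67 against 1.82 to 2.24).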

How the data were processed

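Liver RNA (Cy-5) of 39 mice was hybridized with reference RNA (Cy-3), without a dye swap, on Agilent arrays. The authors deposited, per spot, median intensities and local background read by Agilent Feature Extraction (11.5.1.1 in the submitters' processing notes), its processed signals, and log10 ratios, which the series table repeats. From the median intensities, limma 3.58.1 (R 4.3.3) corrected background (normexp, offset 50), loess-normalized each array and quantile-normalized between arrays. Outlier spots and controls were left out, spots of a probe were averaged, and 25903 RefSeq probes were tested in 1 fit of 8 group means with Benjamini-Hochberg adjustment over all. A gene stands by its brightest RefSeq probe. RefSeq tables of GRCm38.p6 gave names for 24375 probes. All 10 genes are named, and pathway genes where the adjusted p was 0.05 or less; 1 item of the lists is not reported here. The members and lists were chosen with earlier results of these data known. The fit was tested on simulated data. No label says whether mice shared a litter, and the number of arrays limits the precision.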

Additional observations from a re-analysis of the deposited data

Results flagged for a closer look

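In 6 of 80 groups of values (10 genes in 8 groups) 1 mouse stood far from the others by Dixon's test, of which chance gives about 1 in 20. Plin2 was 0.88 in Ctrl mouse 4 at 24 hrs after 5 days and 0.65 to 0.66 in the other 3. Cidea was 0.32 in AggE mouse 5 of that time point, a spot not well above background, and at most 0.02 in the other 4. AggE mouse 2 at 1.5 wks was high in both CIDE genes, with Cidea at 0.96 (the others at most 0.05) and Cidec at 1.56 (the others 0.20 to 0.48), and it is the liver with a skeletal muscle mean of 2.73. That array was scanned on the second day, apart from the other 4 of its group. Cidea was 0.40 in Ctrl mouse 5 at 4 wks, against at most 0.07 in the other 5, and Cd36 was 0.41 in Ctrl mouse 2 at 24 hrs after 10 days, against 0.00 to 0.02 in the other 3.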

How the results depend on the processing

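At 24 hrs after 5 days 1 of the 10 genes was called with array weights (Pparg, -0.51), with the log ratios of the series table (Cidec, -3.15) and with a normexp offset of 0 (Cidec, -2.02). Of all 25903 probes 1940, 240 and 637 were called in these settings. At 4 wks 1 was called with Aquantile and with no normalization between arrays (Pparg, -0.63 in each) and without the groups at 1.5 wks (Plin5, -0.77). Of all 25903 probes 2487, 2487 and 918 were called in these. The offset of 0 and the fit without the groups at 1.5 wks were added after seeing the data. The processed signals turned Plin5 at 24 hrs after 5 days to 1.43 and its difference from the change at 24 hrs after 10 days to 1.33 (from -0.75). The slide as a fixed block, which rests on the 1 AggE mouse of slide 9 at 4 wks, turned Agpat2 there to -0.18, and without that mouse it was 1.21. The cause was not tested for any of these. Leaving out each mouse in turn gave from 0 to 0 calls among the 10 genes in every comparison. Over 57 settings, 895 of 1012 changes of the 10 genes kept their sign. Replicate numbers did not pair the mice (correlations of deviations from -0.448 to 0.502), and the replicate block called 0 of the 10 genes in each comparison. Over all probes, calls ran from 10 (slide as a random block) to 1940 (array weights) at 24 hrs after 5 days (803 as reported; 298 without Ctrl mouse 4), from 2 (offset of 0) to 2487 (no normalization between arrays) at 4 wks (910; 138 without AggE mouse 3, 2172 without AggE mouse 1), from 6 to 76 at 24 hrs after 10 days (19) and from 0 to 14 at 1.5 wks (0). For the 3 differences they ran from 0 to 144 (7, 18 and 13). A fixed slide or scan-day block could not be fitted at 24 hrs. Cidea and Pnpla3 were mostly not above background, so that little can be said of them.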
